A study of Mus musculus with 12 samples.

Results

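Imprinted genes are transcribed mainly or only from a single parental copy, and many of them act on the growth of the fetus, the placenta and the endocrine organs. Their expression follows DNA methylation marks that are set in the germ line and kept through cell division. The genes described here are 10 imprinted growth genes that lie outside the Dlk1-Meg3 cluster: Plagl1, Ndn, Peg3, Nnat, Cdkn1c, Qpct, Igf2, Mest, Grb10 and Asb4. Every probe set of the 3 Affymetrix U74 version 2 mouse chips (A, B and C) whose platform annotation gives exactly 1 of these symbols was taken, a rule that uses no measured value. This gave 22 probe sets (15 from chip A, 4 from chip B, 3 from chip C) of 36701 that are not controls, or 10 of 15964 genes.

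The measurements come from MIN6, a β-cell line established from an insulinoma of a mouse that carried the SV40 T antigen in its β cells, so all 4 populations share this transgene. Parental MIN6 cells were sampled early (Pr-LP, passages 17 to 20) and late (Pr-HP, passages 35 to 40). Clone 4, which descends from 1 parental cell picked by limiting dilution while passages were still few, was likewise sampled early (C4-LP, passages 17 to 20) and late (C4-HP, passages 40 to 50). All were grown in the same high-glucose medium without any further agent. Glucose-stimulated insulin secretion (GSIS) was retained in 3 populations, Pr-LP and both of clone 4, called the responder cells, and lost in Pr-HP. Each population has 1 array per chip, 12 arrays in all. No array was repeated, and precision is limited by this number of arrays. Passage, culture and loss of GSIS cannot be told apart in Pr-HP.

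The values are intensities on a linear scale in arbitrary units, and they are compared only within a probe set. Array medians were 214.2 to 216.0 (chip A), 161.9 to 162.7 (chip B) and 92.5 to 92.9 (chip C). Values under the 20th percentile of a chip (67.3, 58.6 and 29.1 units for A, B and C) were treated as lying at this floor, and a fold against such a value is a lower bound, written "at least". Means of the responder cells carry the SD over the 3 populations, a spread between cultures of different origin or passage and not between replicates. Responder populations and Pr-HP were compared by limma on the log2 scale over the 23340 probe sets that exceeded the 40th percentile of their chip in at least 1 array. This leaves 2 residual degrees of freedom and takes the lone Pr-HP array to vary as the others do. As markers of cell identity, 10 of 15 β-cell genes were measured, and none of them lay under the floor in all populations. Pr-HP lay below every responder population in 7 of the 10, among them Neurod1 (211 against 264 to 604) and Isl1 (516 against 716 to 936). It lay above in 2, Pcsk1 (1379 against 425 to 771) and, by a small margin, Ins2 (15526 against 14771 to 15461). The paper raises that insulin signals might have exceeded the linear range of the array, and found no significant Ins2 difference by quantitative RT-PCR. Summed over a list, intensities depend mostly on its brightest probe sets. The β-cell sum was 28970 in Pr-HP and 30617 to 32363 in the responder cells, largely from Ins2 and Iapp. It leaves out Ins1, which is not among the 10 genes. The paper found Ins1 much lower in Pr-HP by quantitative RT-PCR, so this sum understates the difference in insulin transcripts. The α-cell sum was 10842 against 985 to 6391, from Gcg (10552 against 502 to 3175), while Ttr (248 against 435 to 3135) and Irx2 were lowest in Pr-HP. The duct-cell sum was 3850 against 2499 to 3135, from Car2 (1831 against 131 to 162), while Krt7 was lowest in Pr-HP. Of the macrophage markers Cd68 was higher (1785 against 177 to 210) and Csf1r was not (90.9 against 88.0 to 99.7), for sums of 1876 against 276 to 298. The part of these cells in the results was not tested. In bulk RNA, fewer cells of a type and less RNA per cell cannot be told apart. The 3′ to 5′ ratio of the Gapdh control probe sets had its lowest value in Pr-HP for all 3 chips (0.867, 0.953 and 1.16 against 0.968 to 1.05, 1.01 to 1.09 and 1.19 to 1.31), while for Actb the Pr-HP ratio was under those of the responder cells with chip A (1.15 against 1.25 to 1.43) and chip B (1.28 against 1.39 to 1.42) but among them with chip C (1.34 against 1.30 to 1.42). The part of this in the results was not tested.

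Plagl1, Ndn, Peg3 and Nnat were lower in Pr-HP than in each responder population with all of their probe sets, and Qpct was higher there. In 1 probe set of Peg3 the difference was only 1.16-fold, and Ndn in Pr-LP lay nearer to Pr-HP than to clone 4. Of all tested probe sets, 28.2% were lower in Pr-HP than in each responder population. Igf2, Grb10 and Asb4 differed by less than 1.5-fold, and Cdkn1c and Mest did not rise above the low range of their chip. The sequences upstream of Plagl1, Peg3, Ndn and Nnat are shown because their CpG dinucleotides, printed in capitals, are the sites that DNA methylation can mark. Each line gives the 250 bases before the annotated start, 5′ to 3′ on the strand of the gene, from RefSeq on build GRCm38.p6.
Plagl1, chr10:13090582-13090831, + strand: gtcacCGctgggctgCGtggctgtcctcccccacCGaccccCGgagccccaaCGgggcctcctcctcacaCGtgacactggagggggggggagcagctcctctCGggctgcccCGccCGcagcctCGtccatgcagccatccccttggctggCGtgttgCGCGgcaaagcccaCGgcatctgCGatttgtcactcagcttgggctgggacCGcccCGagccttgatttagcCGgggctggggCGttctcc
Peg3, chr7:6730420-6730669, - strand: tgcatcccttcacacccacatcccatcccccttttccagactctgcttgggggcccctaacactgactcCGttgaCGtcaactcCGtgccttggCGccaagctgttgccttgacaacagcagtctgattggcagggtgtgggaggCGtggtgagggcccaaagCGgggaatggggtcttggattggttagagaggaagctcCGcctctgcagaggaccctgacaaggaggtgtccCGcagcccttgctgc
Ndn, chr7:62348027-62348276, + strand: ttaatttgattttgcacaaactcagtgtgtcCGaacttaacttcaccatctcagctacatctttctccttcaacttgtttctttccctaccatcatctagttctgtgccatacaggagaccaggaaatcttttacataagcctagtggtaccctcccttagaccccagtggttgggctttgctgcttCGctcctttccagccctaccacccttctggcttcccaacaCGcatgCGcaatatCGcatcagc
Nnat, chr2:157559828-157560077, + strand: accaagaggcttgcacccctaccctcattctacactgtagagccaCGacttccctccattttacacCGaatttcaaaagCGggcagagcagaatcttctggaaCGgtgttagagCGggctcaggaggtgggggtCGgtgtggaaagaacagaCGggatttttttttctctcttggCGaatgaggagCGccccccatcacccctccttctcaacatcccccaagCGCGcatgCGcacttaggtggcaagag
The Plagl1 sequence holds 19 CpG dinucleotides, that of Nnat 12, that of Peg3 8 and that of Ndn 5. The median over the 32851 promoters of the same table was 6, with quartiles of 2 and 16. As many as in Plagl1 were found in 19.7% of all promoters, as many as in Nnat in 33.5%, as many as in Peg3 in 43.0% and as many as in Ndn in 55.6%. The 4 sequences are thus spread over a wide part of the range. The letters GGGGCCCC, a GC-rich run that reads the same on both strands, occur once in the Peg3 sequence, starting 201 bases before the start, and in 0.889% of all promoters. These letters are not in the window of the other 3. Expression arrays measure neither methylation nor binding at these sites. The table held 15 promoters of 8 of the members, and Qpct and Cdkn1c were not matched.

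Plagl1 (also known as Zac1) encodes a zinc finger transcription factor that restrains the cell cycle, is expressed from the paternal copy, and is known for its link to transient neonatal diabetes. Probe set 166084_f_at on chip C read 110 in Pr-HP, against 1605 in Pr-LP, 1605 in C4-LP and 1677 in C4-HP. The 3 responder populations stood within 5% of each other and far from Pr-HP. Their mean was 1629 ± 41.7 (SD, n = 3 populations), 14.8-fold that of Pr-HP, with a log2 difference of 3.89 ± 0.09 (SE) and an adjusted p of 0.00926 from limma. This is the only probe set of the 10 genes that passed the test, and by size it ranked 4 of the 23340 toward the responder cells. The call was lost without Pr-LP (adjusted p = 0.0793 in limma) and without C4-HP (adjusted p = 0.379), while the log2 difference stayed at 3.90 and 3.87. It was also lost with parental or clone 4 origin as a block, and with the floor at the 40th percentile (adjusted p = 0.0561 in limma). In each of these settings limma made no call for any other probe set either, so the loss was not particular to this one.

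The other probe sets of Plagl1 also had their lowest value in Pr-HP, where each lay under the floor. For 92502_at the values were 357 (Pr-LP), 440 (C4-LP), 449 (C4-HP) and 30.1 (Pr-HP), at least 6.17-fold higher in the responder cells, with an adjusted p of 0.0682 from limma. For 163814_r_at they were 340, 476, 409 and 14.3 in the same order, at least 6.96-fold higher (adjusted p = 0.0741 in limma). For 92501_s_at they were 112, 173, 231 and 56.0, at least 2.56-fold higher (adjusted p = 0.497 in limma). Pr-HP lay below every responder population in each of the 4 probe sets, as it did in 28.2% of all tested probe sets. The 3 chips carry the same 4 populations, so these probe sets are not independent of each other. The sizes in the 3 probe sets of this paragraph depend on the floor. With it at 1 unit, 92502_at and 163814_r_at passed the limma test (log2 differences 3.78 and 4.82, adjusted p = 0.0402 and 0.0328), and with it at the 40th percentile the log2 differences of the 3 probe sets, in the order given, were 1.44, 1.73 and 0.26.

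**Figure D1:**
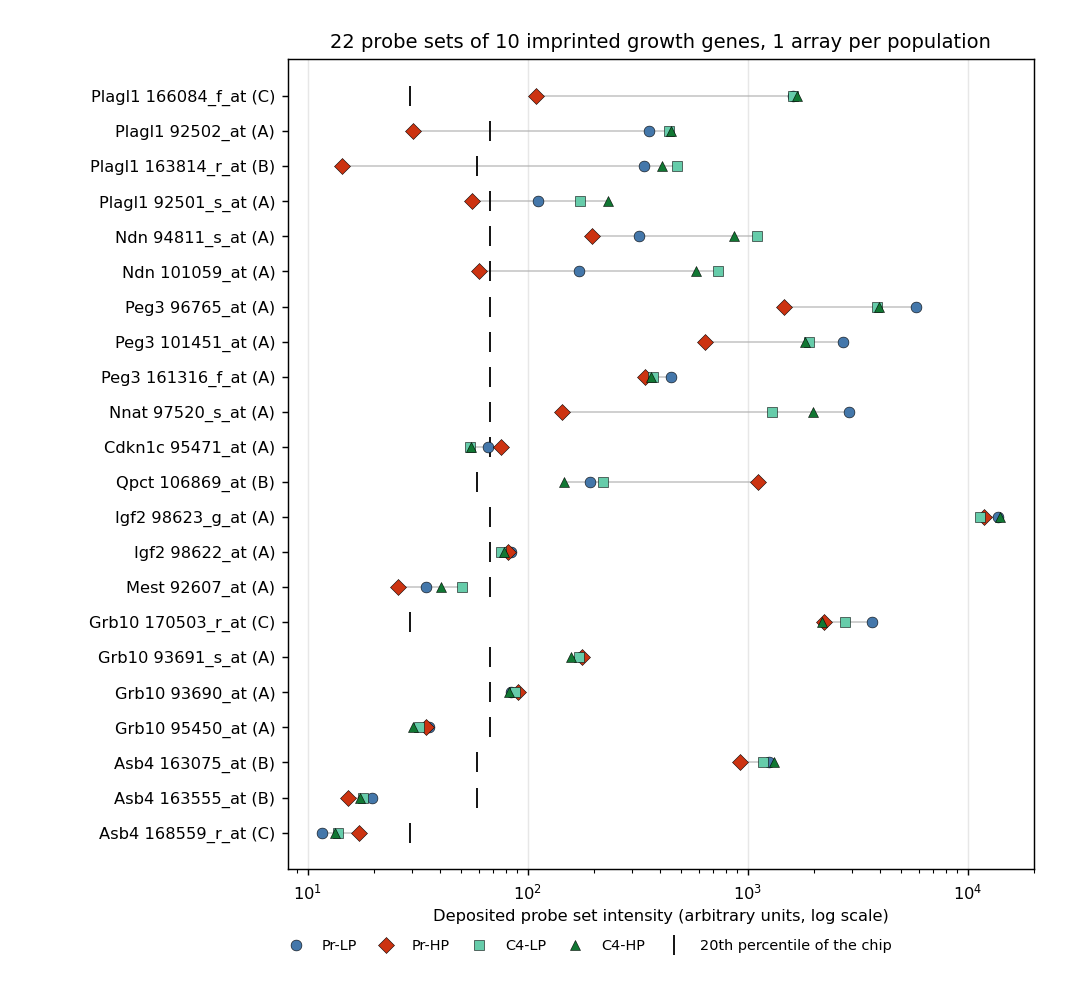
Deposited intensity (arbitrary units, log scale) of the 22 probe sets of the 10 genes, with the chip in brackets, 1 point per array and a bar at the 20th percentile of the chip. Pr-HP (diamond) is the leftmost point in Plagl1, Ndn, Peg3 and Nnat, as in Plagl1 166084_f_at with 110 against 1605 to 1677, and the rightmost in Qpct with 1118 against 146 to 221.

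Peg3 encodes a large zinc finger protein expressed from the paternal copy and known for its part in growth and maternal care. Probe set 96765_at read 5807 (Pr-LP), 3875 (C4-LP), 3975 (C4-HP) and 1461 (Pr-HP). Probe set 101451_at read 2728, 1913, 1826 and 642 in the same order. In both, Pr-LP was highest, the clone 4 populations were close to each other, and Pr-HP was lowest. The responder mean was 3.12-fold that of Pr-HP with 96765_at (log2 difference 1.61 ± 0.29, SE) and 3.36-fold with 101451_at (1.72 ± 0.28). Neither passed the limma test, with adjusted p of 0.278 and 0.257. The third probe set, 161316_f_at, disagreed with them in size. It read 451 (Pr-LP), 372 (C4-LP), 365 (C4-HP) and 340 (Pr-HP), a 1.16-fold difference (adjusted p = 0.756 in limma).

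Ndn (necdin), a paternally expressed member of the MAGE family that holds back the growth of postmitotic neurons, was high in both clone 4 populations and lower in both parental ones. Probe set 94811_s_at read 321 in Pr-LP, 197 in Pr-HP, 1101 in C4-LP and 870 in C4-HP. Probe set 101059_at read 171, 60.2, 734 and 585 in the same order. Pr-HP was lowest in both, and Pr-LP lay nearer to Pr-HP than to clone 4. The responder mean was 3.88-fold that of Pr-HP with 94811_s_at and at least 7.38-fold with 101059_at. The responder populations differed among themselves, with means of 764 ± 401 and 497 ± 292 (SD, n = 3 populations), and neither probe set passed the limma test (adjusted p = 0.579 and 0.508). A block for parental or clone 4 origin leaves the difference to Pr-LP and Pr-HP alone. With it the log2 difference went from 1.78 to 0.71 with 94811_s_at and from 2.64 to 1.35 with 101059_at. Without Pr-LP that of 101059_at was 3.28. C4-LP was 3.43-fold and 4.29-fold above Pr-LP at the same passages.

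Cdkn1c encodes the cyclin-dependent kinase inhibitor p57, which is expressed from the maternal copy and whose loss is known from overgrowth and from focal hyperinsulinism. Its single probe set, 95471_at, read 65.9 in Pr-LP, 76.0 in Pr-HP, 54.5 in C4-LP and 55.3 in C4-HP. The 3 responder values were under the floor of 67.3 and Pr-HP just above it, so that no fold and no test is given. Lists of genes are set, here and below, beside all 12267 genes that exceeded the filter, with 1 probe set per gene. Of these, 11958 were within 2-fold and 1219 had an unadjusted p under 0.05 in limma. After adjustment limma called 3 toward the responder cells and 7 toward Pr-HP. The other CDK inhibitors, cyclins and cell cycle genes of a list of 18 were all measured. Of the 15 of them that exceeded the filter, 14 were within 2-fold and 0 passed the limma test, with 1 at an unadjusted p under 0.05. The exception in size was Ccnd2, the gene for cyclin D2, with 650 in Pr-HP against 257 (Pr-LP), 173 (C4-LP) and 386 (C4-HP), 2.39-fold higher in Pr-HP than the responder mean (adjusted p = 0.519 in limma). Cdkn1a, for the inhibitor p21, read 998 in Pr-HP against 659 to 748 (1.43-fold, adjusted p = 0.379), and Pcna, for the DNA polymerase clamp, 2434 against 1662 to 2072 (1.28-fold, adjusted p = 0.601).

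Igf2, the paternally expressed fetal growth factor, showed no difference that passed the test. Whether its signal was still within the linear range of the array was not tested. Probe set 98623_g_at read 13785 in Pr-LP, 11886 in Pr-HP, 11393 in C4-LP and 14064 in C4-HP. Pr-HP lay inside the range of the responder cells, whose mean of 13080.5 ± 1468 (SD, n = 3 populations) was 1.10-fold that of Pr-HP (log2 difference 0.13 ± 0.17, adjusted p = 0.853 in limma). The second probe set, 98622_at, stayed between 75.8 and 83.9, just over the floor, and did not exceed the filter. Grb10 encodes an adaptor that binds the insulin and IGF1 receptors and dampens their signal, and is maternally expressed in most tissues. Probe set 170503_r_at read 3678 in Pr-LP, 2235 in Pr-HP, 2782 in C4-LP and 2176 in C4-HP, so that both high-passage populations were low and Pr-HP lay within the range of the others (1.29-fold, adjusted p = 0.782 in limma). Probe set 93691_s_at read 175, 176, 172 and 158 in the same order (log2 difference −0.06 ± 0.12, adjusted p = 0.901). The other probe sets of Grb10 gave 82.6 to 90.5 (93690_at) and 30.2 to 35.5 (95450_at, under the floor in all populations).

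Beyond these genes, 18 of 22 listed genes of the insulin-like growth factor axis were measured and 17 exceeded the filter. Their counts stand beside those over all genes given above. With 1 probe set per gene all 17 were within 2-fold, 0 passed the limma test and 1 had an unadjusted p under 0.05. The gene with the largest difference was Igf1r, the receptor through which both IGF1 and IGF2 signal, and it ran toward Pr-HP with each of its 4 probe sets. Probe set 102224_at read 625 in Pr-LP, 1468 in Pr-HP, 959 in C4-LP and 689 in C4-HP. The highest value was in Pr-HP and the next in C4-LP in each of them. The Pr-HP value was 1.94-fold the responder mean with 102224_at, 2.23-fold with 129046_f_at, 2.65-fold with 106956_at and 3.31-fold with 116112_at. None passed the limma test (adjusted p between 0.356 and 0.441). Irs1, a substrate of these receptors, read 166 in Pr-HP against 235 to 372 in the responder cells (1.76-fold higher in responder cells, adjusted p = 0.519), and Igf2r, the imprinted receptor that clears IGF2, 545 against 635 to 776 (1.29-fold, adjusted p = 0.562). Grb14, a relative of Grb10, read 99.7 in Pr-HP against 186 to 303 with probe set 114784_at (2.47-fold, adjusted p = 0.359 in limma) but 6410 against 6264 to 6874 with 168409_r_at.

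**Figure D2:**
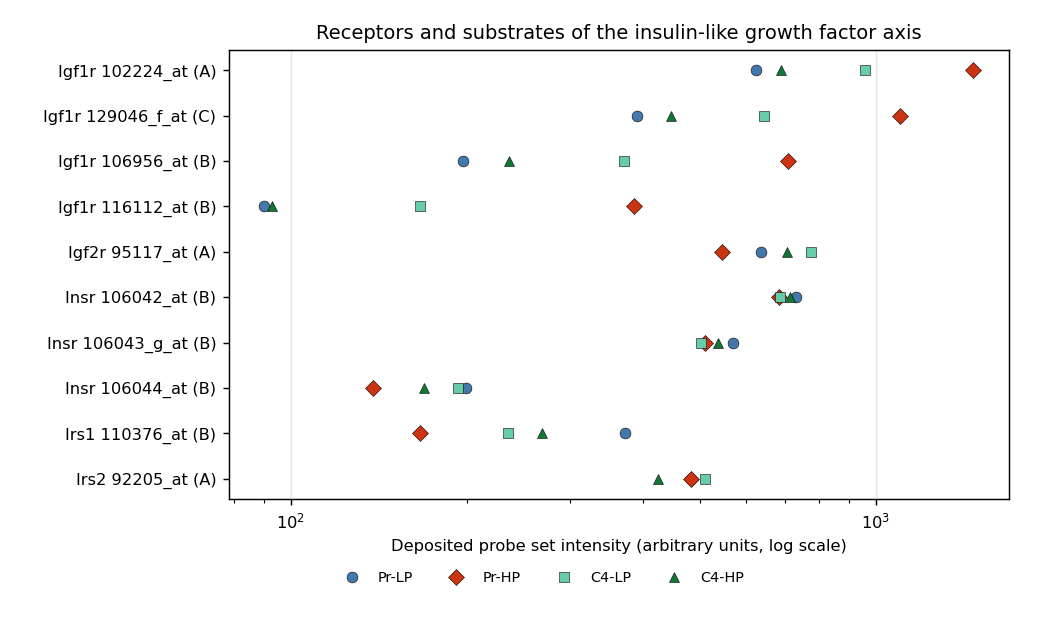
Deposited intensity (arbitrary units, log scale) of the probe sets of Igf1r, Igf2r, Insr, Irs1 and Irs2 past the filter, 1 point per array. In all 4 probe sets of Igf1r Pr-HP (diamond) is the rightmost point (1468 against 625 to 959 in the uppermost), while those of Insr lie close together, as in 106042_at with 682 to 730.

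Nnat (neuronatin) encodes a small paternally expressed membrane protein of the endoplasmic reticulum that is abundant in β cells and is known for a part in insulin processing. Its probe set 97520_s_at read 2891 (Pr-LP), 1285 (C4-LP), 1976 (C4-HP) and 144 (Pr-HP). All responder populations lay far above Pr-HP, but they differed 2.25-fold among themselves. Their mean was 2051 ± 805 (SD, n = 3 populations), 14.2-fold that of Pr-HP, with a log2 difference of 3.75 ± 0.49 (SE) and an adjusted p of 0.191 from limma. By size it ranked 5 of 23340 toward the responder cells, next to Plagl1, without passing the test. Nnat lies within an intron of Blcap, whose probe set 98055_at read 417, 385, 474 and 244 in the same order (1.75-fold, adjusted p = 0.323).

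Qpct encodes glutaminyl cyclase, which forms the N-terminal pyroglutamate of peptides and hormones, and its imprinting is known from the placenta. Probe set 106869_at read 1118 in Pr-HP against 193 (Pr-LP), 221 (C4-LP) and 146 (C4-HP). The groups did not overlap, and Pr-HP was above every responder population in 29.5% of all tested probe sets. For Qpct it was 5.98-fold the responder mean of 187 ± 38.1 (SD, n = 3 populations). The log2 difference was −2.60 ± 0.26 (SE) with an adjusted p of 0.122 from limma, and by size it ranked 17 of 23340 toward Pr-HP. The paralog Qpctl, a glutaminyl cyclase of the Golgi, read 529 in Pr-HP against 513 to 613 (adjusted p = 0.945). Mest, a paternally expressed gene for a hydrolase-like protein of the endoplasmic reticulum, read 34.7 in Pr-LP, 25.7 in Pr-HP, 50.6 in C4-LP and 40.3 in C4-HP with 92607_at, under the floor in all 4 populations, and no fold is given. Asb4 encodes the substrate adaptor of a ubiquitin ligase, maternally expressed. Probe set 163075_at read 1250 (Pr-LP), 1177 (C4-LP), 1326 (C4-HP) and 920 (Pr-HP), a narrow spread with Pr-HP lowest (1.36-fold, log2 difference 0.44 ± 0.12, adjusted p = 0.399 in limma). Its probe sets 163555_at (15.2 to 19.6) and 168559_r_at (11.6 to 17.1) were under the floor throughout.

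Counted over all 22 probe sets, 9 were past 3-fold toward the responder cells, from Plagl1 (4), Ndn (2), Peg3 (2) and Nnat (1), beside 0.229% of all probe sets. Toward Pr-HP there was 1, of Qpct, beside 0.278% of all. These counts include values under the floor as deposited, and the genes were chosen with such differences known, so the count is a description and no independent evidence. Of the 15 probe sets that exceeded the filter, limma called 1 toward the responder cells (0.0171% of those tested) and 0 toward Pr-HP (0.0643% of those tested), where Qpct had an unadjusted p of 0.000532. Pr-HP lay below every responder population in 11 of the 15 and above in 2, Qpct and Grb10 93691_s_at. Over all tested probe sets the shares were 28.2% and 29.5%. This count is likewise a description, and Plagl1, Ndn and Peg3 each enter it with more than 1 probe set. Some of those of Plagl1 and Ndn lay under the floor in Pr-HP and passed the filter through responder arrays alone. With 1 probe set per gene, Pr-HP was below in 5 of 8 genes and above in 1. Over the 12267 genes tested it was below in 3408 and above in 3625. The median log2 difference over the 8 genes that exceeded the filter was 1.03, and over the 12267 genes tested it was 0.00. Between responder populations, 3 of the 15 differed by more than 2-fold for Pr-LP and C4-LP and 0 for C4-LP and C4-HP (2.64% and 1.30% of all tested), against 8 for Pr-LP and Pr-HP (3.20% of all).

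Low and high passage were also compared within parental cells and within clone 4. Single arrays stand against each other here, so these are values without a test, and values under the floor were raised to it. In parental cells, 6 of the 15 probe sets were more than 3-fold lower in Pr-HP than in Pr-LP (0.467% of all tested), 3 of Plagl1, 2 of Peg3 and that of Nnat, and 1, that of Qpct, was higher (0.617% of all). Nnat was 20.1-fold lower, Plagl1 166084_f_at 14.6-fold, Peg3 3.98-fold and 4.25-fold, and Qpct 5.78-fold higher. In clone 4 cells none of the 15 passed 3-fold between C4-HP and C4-LP, where 0.0985% of all tested were higher and 0.244% lower in C4-HP. There Nnat was 1.54-fold higher, Qpct 1.52-fold lower and Plagl1 166084_f_at 1.05-fold higher at high passage. Ndn was 1.63-fold (94811_s_at) and at least 2.54-fold (101059_at) lower at high passage in parental cells and 1.27-fold and 1.25-fold lower in clone 4. At low passage, the 2 probe sets of Ndn were past 3-fold higher in C4-LP than in Pr-LP (0.48% of all tested) and none was lower (0.176% of all). At high passage 7 probe sets, of Plagl1, Ndn and Nnat, were past 3-fold higher in C4-HP than in Pr-HP (0.304% of all tested) and Qpct was 7.66-fold lower (0.514% of all past 3-fold). These comparisons share arrays and are set side by side only.

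**Figure D3:**
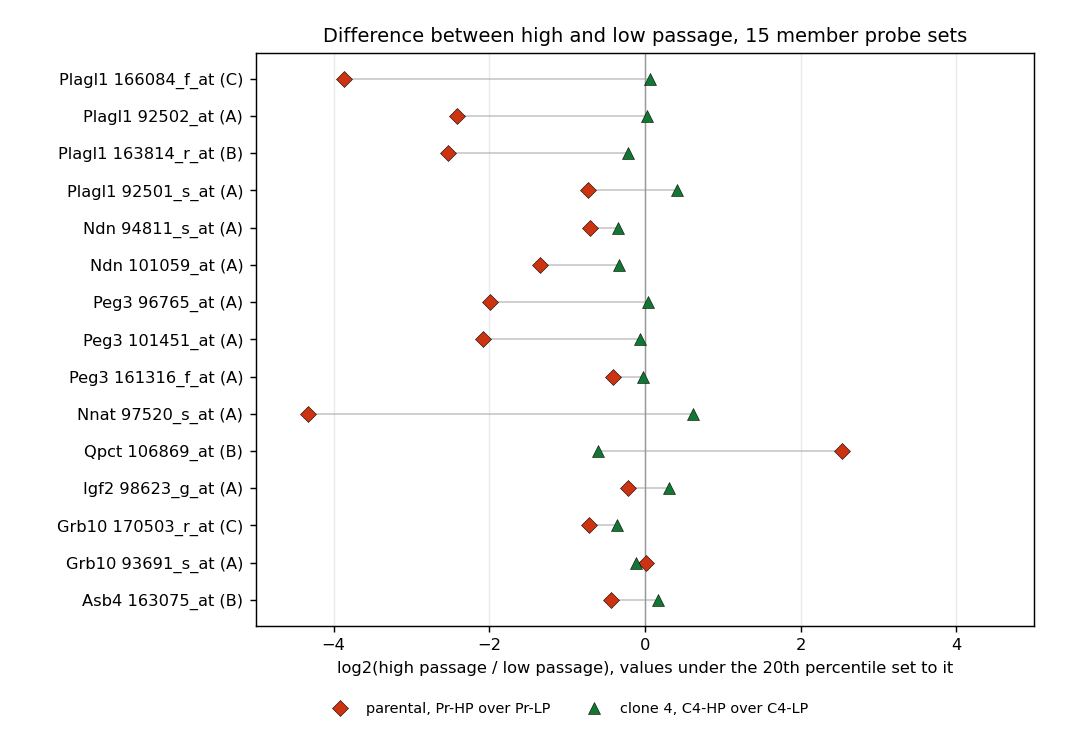
log2 ratio of the high-passage to the low-passage array for the 15 probe sets of the members past the filter, in parental cells (diamonds) and clone 4 (triangles), 1 array for each population. The parental values run from −4.33 (Nnat) to 2.53 (Qpct), and the clone 4 values lie between −0.60 (Qpct) and 0.62 (Nnat).

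Other imprinted genes outside the Dlk1-Meg3 cluster are given here as a description, with 1 probe set per gene and with 2-fold meaning a limma log2 difference of 1. Over all 12267 genes tested, 11958 were within 2-fold and 1219 had an unadjusted p under 0.05 in limma. Of 38 genes from the imprinted clusters around the members 31 were measured and 21 exceeded the filter, with a median log2 difference of −0.02 and 0 calls by limma (5 at an unadjusted p under 0.05). The single gene past 2-fold was Th, for tyrosine hydroxylase, near Ins2 and Igf2, with 1944 (Pr-LP), 2181 (C4-LP), 719 (C4-HP) and 221 (Pr-HP), 7.30-fold in all and with an adjusted p of 0.417 from limma. Ins2, the insulin gene beside Igf2 that is imprinted in the yolk sac, read 15526 in Pr-HP against 14771 to 15461 (adjusted p = 0.92). Usp29, beside Peg3, read 107 in Pr-HP against 136 to 150 in the responder cells (1.33-fold). Larger differences were seen in Ppp1r9a, with 105 against 154 to 218 (1.73-fold), and Tssc4, with 2460 against 3536 to 3976 (1.53-fold). Kcnq1 ran toward Pr-HP with 99322_at (221 against 138 to 155, 1.52-fold) but not with its brighter 161796_r_at (580 against 525 to 627). Of the 21 genes, Pr-HP was below every responder population in 7 and above in 4. Ddc, beside Grb10 and known for the synthesis of dopamine and serotonin, spread from 150 in C4-LP to 4387 in Pr-LP with Pr-HP at 1333. Magel2, a relative of Ndn in its cluster, stayed between 58.9 and 69.5, near the floor. Of 27 other imprinted genes 21 were measured and 16 exceeded the filter, all within 2-fold for that 1 probe set, with a median of 0.02, 0 calls by limma and 2 at an unadjusted p under 0.05. The first by size was Nap1l5, with 948 in Pr-HP against 1334 to 1666 (1.55-fold, adjusted p = 0.395), followed by Zdbf2, with 379 in both Pr-HP and C4-LP and 565 to 702 in the others, and Inpp5f, with 366 in Pr-HP against 313 to 882 (a second probe set, 167769_f_at, read 67.4 against 55.8 to 274, a 2.12-fold higher responder mean).

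Relatives of the members and genes of imprint maintenance were counted in the same way, beside the same counts over all genes. Of 20 related genes, such as Plagl2, Maged1 and other Asb genes, 16 of the 18 measured exceeded the filter and all had log2 differences under 1 in size (median 0.04, 0 calls by limma and 0 at an unadjusted p under 0.05). Asb13 had the largest difference of these with 84.7 in Pr-HP against 120 to 214 (log2 difference 0.97, a 2.01-fold higher arithmetic mean, adjusted p = 0.516), ahead of Maged2, with 535 against 528 to 1431 (0.78, adjusted p = 0.75), and Zfp568, with 217 against 204 to 366 (0.36, adjusted p = 0.808). Of 15 genes for DNA methylation and imprint maintenance, 11 of the 13 measured exceeded the filter and all were within 2-fold (median 0.01, 0 calls by limma and 0 at an unadjusted p under 0.05). Dnmt3a, the de novo DNA methyltransferase, read 846 in Pr-LP, 584 in C4-HP, 353 in C4-LP and 337 in Pr-HP (adjusted p = 0.723). Zfp57, a zinc finger protein that protects imprints, read 162 in Pr-HP against 100.5 to 139 (adjusted p = 0.632), and Uhrf1, which brings the maintenance methyltransferase to replicating DNA, 974 against 570 to 894 (adjusted p = 0.744). The maintenance enzyme itself, Dnmt1, read 1920 in Pr-HP against 1755 to 2224.

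**Figure D4:**
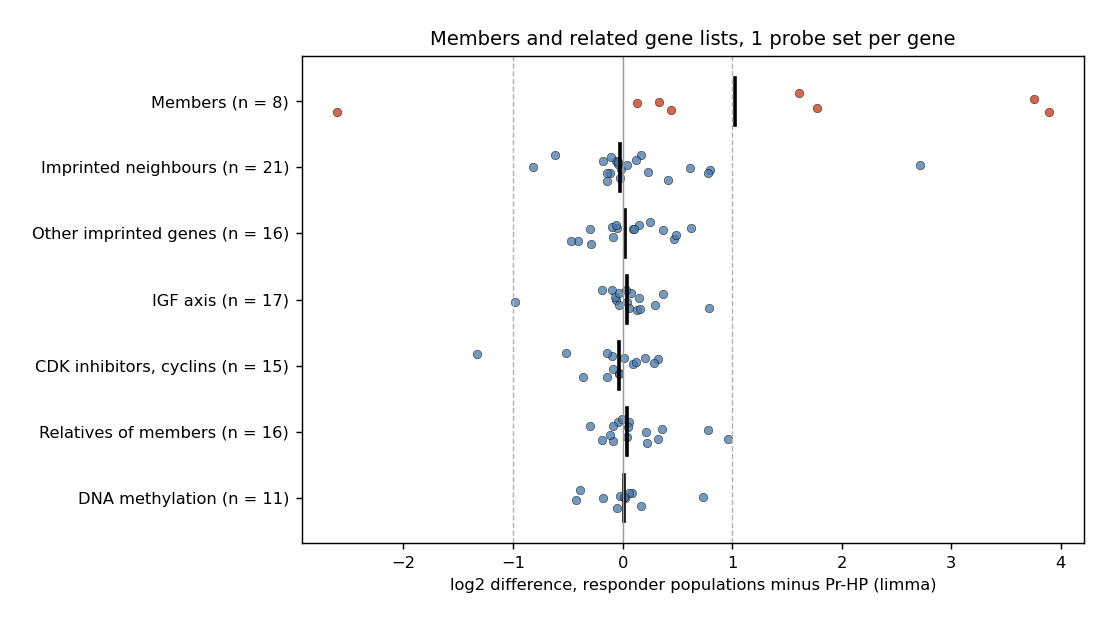
log2 difference between the responder cells and Pr-HP from limma for the genes of each list past the filter (1 probe set per gene, n in brackets), with the list median as a bar and dashed lines at 2-fold. The members spread from −2.60 (Qpct) to 3.89 (Plagl1) with a median of 1.03, while the medians of the other lists lie between −0.03 and 0.04. The members were chosen with such differences known, so their median is a description and no independent evidence.

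The genes with patterns nearest to the members were sought by the Euclidean distance between centred log2 values over the 4 populations, which gives an order and no test. The search covered members whose leading probe set spanned at least 4-fold, which left out Peg3 with 3.98-fold. Nearest to Plagl1 166084_f_at were Hepacam2 (distance 0.834), Nnat (0.835) and Meg3 (0.985), the noncoding RNA of the Dlk1-Meg3 cluster, with 388 in Pr-LP, 55.3 in Pr-HP, 761 in C4-LP and 637 in C4-HP. Nearest to Nnat were Hepacam2 (0.277), Plagl1 (0.835) and Mlxipl (0.900), which encodes the glucose-responsive transcription factor ChREBP and read 1344, 113, 475 and 708 in the same order. Ndn 94811_s_at stood closest to Stox2 (0.337), Prom1 (0.418) and Emilin1 (0.619), which shared the high values in clone 4. Qpct stood closest to Endod1 (0.265), S100a10 (0.314), for a partner of annexin A2, and Rbfox1 (0.328), for a splicing factor. S100a10 read 738 in Pr-LP, 4067 in Pr-HP, 1065 in C4-LP and 629 in C4-HP.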

How the data were processed

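Total RNA of 4 MIN6 populations was biotin-labelled for hybridisation to the 3 chips of the U74 version 2 set. The deposited files give, for each array, 1 linear intensity per probe set, as the authors made them. The methods name GeneChip software for the arrays, without saying that these values are its output. The sources used here do not give how arrays were normalized and probes summarised. Of 36899 probe sets, 198 controls were left out. The platform annotation gave 29131 of the others 1 symbol, 724 several and 6846 none, and 0 probe sets with several symbols held a member. Groups were taken from the labels. The members and lists were chosen with earlier results of these data known.

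Folds are arithmetic means of the responder cells over Pr-HP or the reverse, with values under 1 set to 1, counted past 3-fold where the higher side reached 100 units. limma 3.58.1 (R 4.3.3, lmFit and eBayes within each chip) was run on log2 intensities after values under the 20th percentile were raised to it, for probe sets above the 40th percentile in at least 1 array. The Benjamini-Hochberg adjustment covered the 3 chips, with a threshold of 0.05. The fit was tested on simulated data. A gene with several probe sets is represented in lists by the one with the highest mean. Named are all member probe sets, list genes past 3-fold or called by limma and otherwise the 3 with the largest difference, and the 3 nearest patterns of each member that spans at least 4-fold. Blcap, Ddc, Dnmt1, Grb14, Ins2, Kcnq1, Magel2, Ppp1r9a, Qpctl, Tssc4 and Usp29 and the other probe sets of Igf1r were added after their values were seen. A second probe set of Inpp5f was added likewise. Alternatives were other floors, filters, scalings, minimums and thresholds, a block for parental or clone 4 origin, and leaving out each responder population. Python 3.11.15 with pandas 2.3.3 was used for the remaining steps.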

Additional observations from a re-analysis of the deposited data

Results flagged for a closer look

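In 3 probe sets the change with passage ran in opposite directions in parental and clone 4 cells, by at least 1.2-fold in each. Each value is a difference of 2 single-array log2 ratios, parental minus clone 4, and these differences were not tested. For Nnat 97520_s_at it was −4.95, from −4.33 in parental cells and 0.62 in clone 4. For Qpct 106869_at it was 3.13, from 2.53 and −0.60. For Plagl1 92501_s_at it was −1.15, from −0.73 and 0.41, with the Pr-HP value raised to the floor.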

How the results depend on the processing

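The p-values measure the spread between 3 responder populations, and Pr-HP, with 1 array per chip, has no spread of its own. The count of 9 probe sets past 3-fold toward the responder cells became 5 at a threshold of 5-fold. The count over all probe sets went from 84 to 36 there. The member count became 8 with values under the floor raised to it, 8 with the geometric mean and 8 with a minimum of 200 units (80, 70 and 73 over all). When a responder population was left out it lay between 7 and 9 (80 to 91 over all). The count of 1 toward Pr-HP was unchanged in all 11 alternatives, where that over all probe sets ran from 35 to 278. The limma call of 1 probe set became 3 with the floor at 1 unit, 0 with the floor at the 40th percentile and 0 with parental or clone 4 origin as a block, and lay between 0 and 1 when a responder population was left out, with 0 without Pr-LP and 0 without C4-HP. No direction of a log2 difference changed among the 15 probe sets tested, in 150 fits, but this was largely fixed in advance. Settings that change only the filter or the variance estimate leave the log2 difference as it is. In 11 of the 15 Pr-HP lay below every responder population and in 2 above. For these, leaving out a population, the block or another floor cannot reverse the direction. In the block fit both clone 4 arrays count as responder cells, so the log2 difference is that of Pr-LP and Pr-HP alone. Clone 4 adds only its spread, with 1 residual degree of freedom.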
